A study of Mus musculus with 46 samples.

Results

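Collagen genes were followed through the reprogramming of mouse embryonic fibroblasts (MEF) into induced pluripotent stem cells (iPSC). The members are all genes whose symbol is Col, a type number, a and a chain number. There are 44 of them among the 37108 genes of the gene table, and the same 44 were found in the transcript table after summing by symbol. By the structure of their proteins 11 encode chains of fibrillar collagens, 6 encode the chains of type IV collagen of basement membranes, and 27 belong to other classes. Those 27 comprise 6 type VI chains, 9 fibril-associated collagens (FACIT), 2 multiplexins, 4 transmembrane collagens, 3 short-chain network formers, the anchoring-fibril collagen Col7a1, and Col26a1 and Col28a1.

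Collagens are the main structural proteins of the extracellular matrix. Each molecule is a triple helix of chains that may come from different genes, so that type I collagen needs Col1a1 and Col1a2, and the common form of type IV collagen needs Col4a1 and Col4a2. Fibroblasts are the principal source of fibrillar collagen in connective tissue, whereas pluripotent cells make little of it, and loss of the fibroblast programme is an early part of reprogramming.

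The cells were fibroblasts of mid-gestation OG2 embryos, which carry a reporter of Oct4 promoter activity driving GFP. They were infected in 2 rounds with retroviruses carrying Oct4 and either native Nanog (NanogWT) or a Nanog joined to the start of SS18, the stretch with which this BAF complex protein holds the remodelling enzyme BRG1 (NanogBiD, called NanogN70 in the labels). D0 is the end of infection, cells were grown in iCD3 medium and then, from about D7, in N2B27 with 2i and LIF. The time course of 8 days (D0, D1, D3, D5, D7, D8, D10, then D12) had 31 libraries, with 2 per combination and day but 1 for NanogBiD at D8, beside 2 of uninfected MEF and 1 of mouse embryonic stem cells (mES). There were 12 iPSC samples, 6 per combination, with the tag iPSC1 (at passage 5 or 6) or iPSC2 (at passage 2) in their titles. The tag is called the line here, though the titles do not say what it stands for. Between the lines, line and passage cannot be told apart. Within iPSC1 passage 6 is represented by 2 NanogWT samples, and all 3 NanogBiD samples are at passage 5. Each time-course library is a mixed population in which only some cells reprogram, and in such bulk RNA fewer cells of a type and less RNA per cell cannot be told apart. Nothing in the labels says that same-day libraries came from separate cultures, so p-values measure the spread between these libraries, which may be technical.

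Levels are FPKM, fragments scaled by gene length and by the mapped total of the library. Differences are on the log2(FPKM + 1) scale with their standard error (SE), and a gene is called when limma's Benjamini-Hochberg adjusted p over all tested genes is under 0.05 and the difference reaches 2-fold. The read depth of the libraries relative to each other was 0.829 to 1.13 in all NanogBiD libraries and in the NanogWT libraries of D0 to D7, and 1.89 to 3.24 in the 6 NanogWT libraries of D8 to D12, so that depth and combination cannot be told apart from D8 on. Nanog was at 0.229 and 0.235 FPKM in MEF and at 128 or more in every transduced library, and Ss18 was higher in each NanogBiD library (43.97 to 148) than in any NanogWT library (24.7 to 40.9). Of the 44 genes 36 passed the filter of 1 FPKM in 2 libraries. The 8 that did not are Col4a3, Col4a4, Col6a4, Col11a2, Col13a1, Col17a1, Col19a1 and Col24a1, and the highest value of any of them in any library was 1.16 FPKM, for Col24a1 in MEF.

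In MEF the collagen genes together held 7074 and 8131 FPKM, a mean of 1.95% of all FPKM in the library. The 11 fibrillar genes made up most of this, at 6049 and 7182 FPKM. The 6 type IV genes summed to 288 and 371, and the 27 others to 654 and 662. In the mES library all 44 together reached 49.6 FPKM, of which the fibrillar genes held 6.59. The classes thus lie far apart in fibroblasts, and only 6 of the 44 genes reached 1 FPKM in mES. An average of at least 100 FPKM in MEF was reached by 9 members, Col1a1, Col1a2, Col3a1, Col5a1, Col5a2, Col4a1, Col4a2, Col6a1 and Col12a1.

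**Figure D1:**
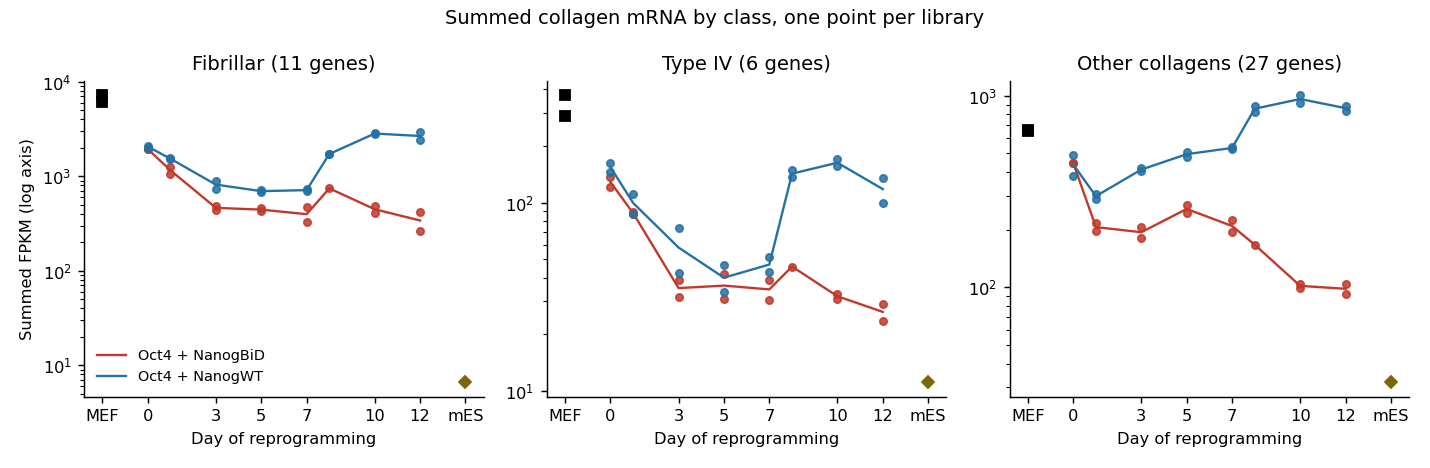
Summed FPKM of the fibrillar, type IV and other collagen genes (log axes with separate ranges) against day of reprogramming, with 1 point per library and lines through the group means for NanogBiD (red) and NanogWT (blue). Squares are MEF and diamonds mES, and in all 3 classes the NanogWT libraries of D10 and D12 lie above the NanogBiD libraries of the same days.

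Both MEF libraries stood above every transduced library in summed fibrillar and in summed type IV collagen mRNA. At D0 the fibrillar sum was 1938 and 1943 FPKM with NanogBiD and 2015 and 2112 with NanogWT, 29.3% and 31.2% of the MEF mean. The type IV sum was at 39.0% and 46.9% of MEF, and the sum of the other classes at 67.8% and 66.5%. Of the 4 tested type IV genes, Col4a1 and Col4a2 were called lower in both combinations. Col4a5 stood at 193% and 204% of its MEF mean (0.88 and 0.96), and Col4a6 also had positive differences (0.86 and 0.62). These positive differences missed the 2-fold limit. At D0 against MEF, 17 of the 36 tested members were called lower and 1 higher with NanogBiD, where 5.61% and 5.82% of all tested genes were. With NanogWT the counts were again 17 and 1, where 3.15% and 3.69% of all genes were called lower and higher. The 2 comparisons share the MEF libraries. In a fit to the 4 compared libraries alone 11 members were called with NanogBiD and 0 with NanogWT, where 1021 and 1 of all 16915 tested genes were called, so that the NanogWT calls of all genes rest on a spread estimated over all groups.

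Col1a1 (chromosome 11, 94936224 to 94953042, mm10) and Col1a2 (chromosome 6, 4505618 to 4541543) encode the chains of type I collagen, the bulk fibril of skin and bone. Col1a1 was at 3699.9 and 3344 FPKM in MEF, at 587 and 634 at D0 with NanogBiD and at 822 and 814 with NanogWT. The D0 means are 17.3% and 23.2% of the MEF mean, with differences of -2.53 (SE 0.25, limma adjusted p = 3.0e-07) and -2.10 (SE 0.25, limma adjusted p = 5.5e-06). Col1a2 was at 1876 and 1576 in MEF and at 717 and 699 (NanogBiD) and 624 and 574 (NanogWT) at D0. Col1a2 was thus nearer to its MEF level, and the ratio of Col1a1 to Col1a2 FPKM was 1.97 and 2.12 in MEF, 0.819 and 0.907 at D0 with NanogBiD, and 1.32 and 1.42 with NanogWT. Neither ratio range overlaps that of MEF or of the other combination.

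Type VI collagen, the beaded filament around cells, was also lower at D0. Col6a1 fell from 222 and 195 in MEF to 30.3 and 25.6 with NanogBiD (-2.85, SE 0.22) and to 51.7 and 40.2 with NanogWT (-2.16, SE 0.22), and Col6a2 and Col6a3 were called lower in both. Cartilage collagens that were low or moderate in MEF were lower as well, with Col2a1, the main chain of cartilage fibrils, at 93.7 and 38.3 in MEF and 4.27 to 13.2 at D0, and Col10a1, the collagen of hypertrophic cartilage, at 10.1 and 11.1 in MEF and 1.07 to 1.59 at D0. The MEF libraries differed from each other in such genes, and Col3a1 was at 676 in 1 and 277 in the other, so that its D0 values of 230 to 301 were not called against MEF, though they were without the second MEF library (-1.36 with NanogBiD and -1.35 with NanogWT). The 1 member called higher in both combinations was Col8a1, a short-chain collagen of vessel walls and of Descemet's membrane, at 85.7 and 77.3 in MEF, 265 and 287 at D0 with NanogBiD (1.75, SE 0.17) and 199 and 277 with NanogWT (1.52, SE 0.17).

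The labelled cell type was checked on markers. All 8 fibroblast markers (Thy1, Pdgfra, Pdgfrb, Twist1, Twist2, Prrx1, Dcn and Lum) reached 1 FPKM in MEF, summing to 472 and 511, and to 304 and 376 at D0 with NanogBiD and 377 and 574 with NanogWT. The 6 smooth muscle markers, Acta2 among them, summed to 1627 and 2623 in MEF and to 1371 to 3477 at D0. The part of such cells in the collagen differences was not tested.

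Sequence just before the start site is shown for 4 members. Col1a2 and Col3a1 were taken because both fall from D0 to D7 in both combinations and rise from D7 to D12 with NanogWT. Col8a1 was taken because it follows its own course. Col18a1 was taken because it rises from D0 to D7, where Col1a2 and Col3a1 fall. RefSeq promoter windows (GRCm38.p6, the mm10 build) were matched for 35 of the 44 members. The windows below are the 250 bases before the start, 5′ to 3′ on the strand of the gene. Capitals mark matches on either strand to CCAAT (bound by the factor NF-Y), to GGGCGG (bound by Sp1 and its relatives), to TATAA (the TATA box), to TGANTCA (bound by AP-1 factors) and to GGAATG (bound by TEAD factors).
Col1a2 (chr6:4505368-4505617, plus strand): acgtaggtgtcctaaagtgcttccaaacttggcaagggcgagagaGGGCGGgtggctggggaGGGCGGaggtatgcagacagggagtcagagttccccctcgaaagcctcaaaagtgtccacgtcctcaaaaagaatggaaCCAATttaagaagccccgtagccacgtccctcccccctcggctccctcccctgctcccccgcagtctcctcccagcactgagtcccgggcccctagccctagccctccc
Col3a1 (chr1:45311288-45311537, plus strand): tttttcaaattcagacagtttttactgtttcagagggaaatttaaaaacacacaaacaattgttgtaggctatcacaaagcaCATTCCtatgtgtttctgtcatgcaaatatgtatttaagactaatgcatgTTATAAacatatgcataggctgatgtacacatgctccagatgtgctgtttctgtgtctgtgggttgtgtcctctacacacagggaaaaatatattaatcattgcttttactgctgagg
Col8a1 (chr16:57754738-57754987, minus strand): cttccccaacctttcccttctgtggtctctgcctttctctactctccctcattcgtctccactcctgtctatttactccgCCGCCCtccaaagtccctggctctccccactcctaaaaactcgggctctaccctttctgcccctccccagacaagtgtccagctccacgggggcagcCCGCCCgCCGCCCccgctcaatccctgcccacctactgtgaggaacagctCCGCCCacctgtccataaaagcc
Col18a1 (chr10:77166531-77166780, minus strand): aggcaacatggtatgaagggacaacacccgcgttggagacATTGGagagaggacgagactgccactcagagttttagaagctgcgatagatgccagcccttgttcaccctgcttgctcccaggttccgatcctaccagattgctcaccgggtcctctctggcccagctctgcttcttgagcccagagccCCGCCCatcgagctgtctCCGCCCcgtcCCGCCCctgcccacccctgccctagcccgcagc
The window of Col1a2 holds GGGCGG 205 and 188 bases before the start and CCAAT 109 bases before it. That of Col3a1 holds neither, and has GGAATG on the other strand and TATAA on both strands in overlapping letters. GGGCGG was present in 21 of the 35 member windows (60.0%) and in 32.9% of the 27025 windows of all genes. CCAAT was present in 12 (34.3%, against 34.5% of all), TATAA in 7 of the 35 (against 23.5% of all), GGAATG in 3 (8.57%, against 12.6%) and TGANTCA in 1 (2.86%, against 6.87%). These matches describe letters and were not tested against the expression values.

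Between D0 and D7 fibrillar and type IV collagen mRNA fell in both combinations, while collagens of the other classes went both ways. With NanogBiD 13 of the 36 tested members were called lower and 5 higher at D7 against D0 (6.15% and 12.7% of all tested genes), and with NanogWT 10 were called lower and 8 higher (5.69% and 12% of all genes). The median difference over the 9 tested fibrillar genes was -1.61 with NanogBiD and -1.25 with NanogWT, and over the 4 tested type IV genes -1.71 and -1.56. Of the 23 tested genes of other classes 5 were called higher and 5 lower with NanogBiD, and 8 higher and 1 lower with NanogWT. Their medians were 0.34 and 0.55, beside 0.24 and 0.12 over all genes. The last 2 values depend on the scaling, being -0.01 and -0.05 after quantile normalization. Over the same days the 6 smooth muscle markers went to 29.2 and 39.8 FPKM in sum with NanogBiD and to 47.5 and 51.8 with NanogWT, and the 8 fibroblast markers to 113 and 133 and to 260 and 265.

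**Figure D2:**
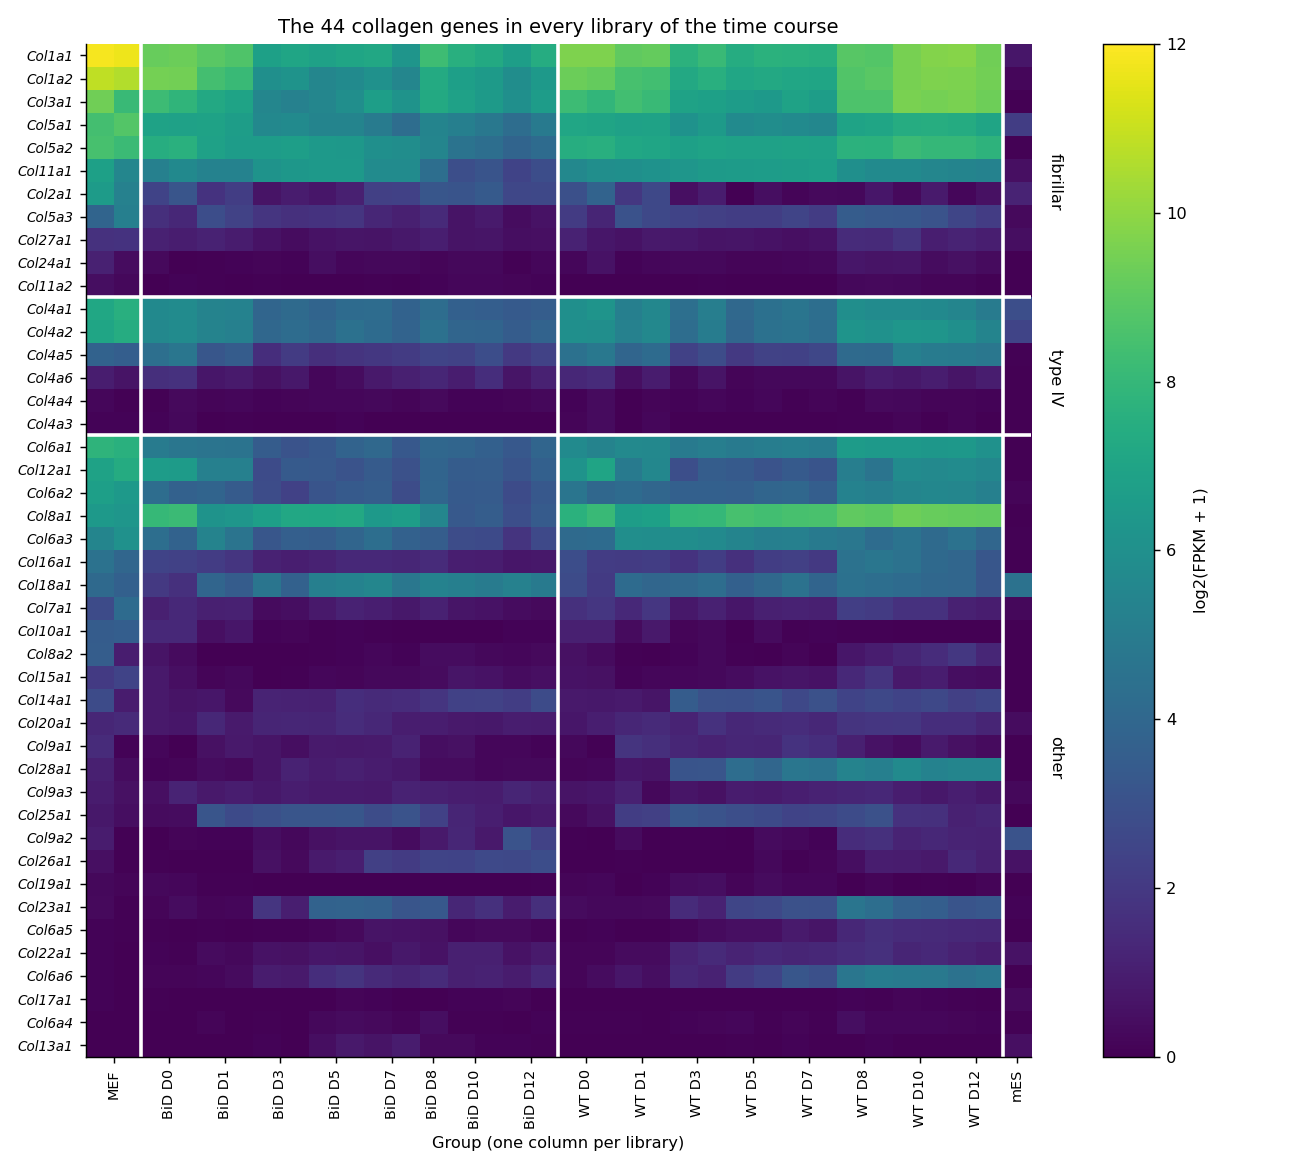
Level of each of the 44 collagen genes as log2(FPKM + 1) in each library of the gene table, with genes ordered within class by their MEF mean. The rows of Col1a1, Col1a2, Col4a1 and Col4a2 are brightest in MEF, and the rows of Col8a1, Col28a1 and Col6a6 are brighter in the late NanogWT libraries than in MEF.

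The type I chains reached their lowest levels between D3 and D7. Col1a1 was at 113 and 133 FPKM with NanogBiD and 206 and 281 with NanogWT at D3, and at 147 and 74.6 with NanogBiD and 196 and 185 with NanogWT at D7. The D7 means are 3.14% and 5.41% of the MEF mean, and the decline from D0 was called in both (-2.53, SE 0.26, with NanogBiD and -2.10, SE 0.26, with NanogWT). Col1a2 fell to 65.6 and 44.004 with NanogBiD and to 136 and 134 with NanogWT, and Col12a1, a FACIT that coats type I fibrils, from 71.6 to 128 at D0 to 6.87 to 9.98 at D7. For Col1a2 the decline was larger with NanogBiD than with NanogWT by 1.55 (SE 0.28, limma adjusted p = 0.00070). For Col12a1 both combinations fell alike in value, by 3.39 and 3.35 on the log2 scale.

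Type IV collagen genes fell along with them. Col4a1 and Col4a2 lie head to head on chromosome 8, where their annotated spans (11198423 to 11312889 and 11312805 to 11449287) overlap by 85 bases. Whether the counting used strand is not given in the sources used here, so reads in the overlap are uncertain. Col4a1 went from 50.2 and 53.9 at D0 to 17.9 and 12.7 at D7 with NanogBiD, and from 61.8 and 72.4 to 24.2 and 18.9 with NanogWT, and Col4a2 from 48.0 and 54.7 to 17.4 and 13.2 and from 61.7 and 60.8 to 22.7 and 18.6. The chains moved together, and the ratio of Col4a1 to Col4a2 was between 0.801 and 1.19 in all libraries up to D7. Col4a5, which lies head to head with Col4a6 on chromosome X with 1274 bases between them and contributes to the type IV network of several organs, fell from 20.04 to 26.9 at D0 to 2.82 to 4.89 at D7. Col4a6 itself was at 1.56 to 2.26 at D0 and 0.187 to 1.08 at D7 and was called lower with NanogWT.

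The fall was not called for every fibrillar gene. Col11a1, which encodes a minor chain that sets fibril diameter, was at 36.2 to 59.4 FPKM at D0 and at 53.7 and 54.2 with NanogBiD and 102 and 108 with NanogWT at D7. Neither change was called, the NanogWT change of 0.98 (SE 0.16) missing the 2-fold limit. Col5a2, a chain of the type V collagen that starts fibrils, went from 176 and 189 to 118 and 117 with NanogWT (-0.63, SE 0.14, not called), and from 176 and 196 to 61.7 and 57.9 with NanogBiD (-1.62, SE 0.14, called). It is the neighbour of Col3a1 on chromosome 1, with 24624 bases between the annotated spans, and Col3a1 was called lower at D7 in both combinations, though with NanogWT not after quantile normalization (-0.91).

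Several genes of other classes were called higher. Col18a1, the multiplexin whose C-terminal fragment is endostatin, was at 3.02 and 2.19 at D0 and 44.7 and 26.4 at D7 with NanogBiD (3.30, SE 0.32). With NanogWT it was at 5.78 and 3.13 and then 21.6 and 13.4 (1.77, SE 0.32). Its D0 means were 18.5% (NanogBiD) and 31.6% (NanogWT) of the MEF mean, and its D7 means 252% and 124%. Its rise was larger with NanogBiD by 1.53 (SE 0.46, limma adjusted p = 0.027), a call that was lost without the filter on low values and when any of 4 libraries was left out (1.16 to 1.37 without the second NanogBiD library of D0, the first of D7, the first NanogWT library of D0 or the second of D7). The transmembrane collagens Col23a1 and Col25a1 rose in both. Col23a1 was at 0.135 to 0.320 at D0 and 6.57 to 12.2 at D7, and Col25a1 at 0.224 to 0.434 and 4.28 to 7.30. For both genes neither the D7 levels nor the changes from D0 were called different between the combinations.

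**Figure D3:**
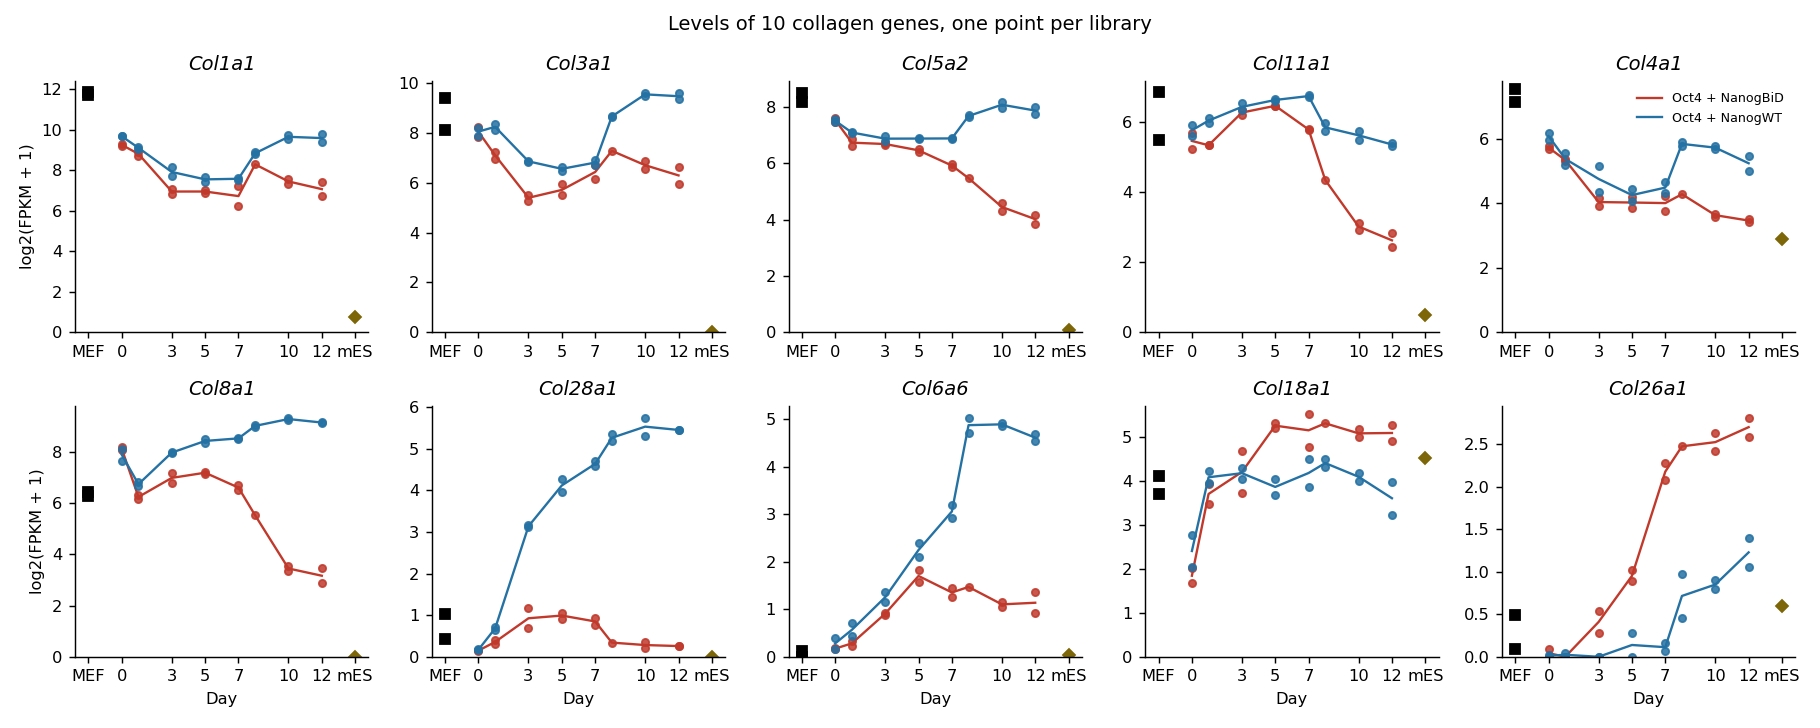
Level of 10 collagen genes as log2(FPKM + 1) against day, with 1 point per library and lines through the means of NanogBiD (red) and NanogWT (blue), squares for MEF and diamonds for mES. Each panel has its own range from 0, and Col8a1, Col28a1 and Col6a6 separate the combinations by D7.

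At D0 no tested collagen was called between the combinations, with 0 of 36 called by limma (0.338% of all genes were called lower and 0.422% higher with NanogBiD) and 3 at an unadjusted p under 0.05. The D0 values of single genes could still lie apart, as those of Col1a1 and Col6a1 given above do, both lower with NanogBiD (-0.42, SE 0.26, and -0.69, SE 0.23). At D1 3 members were lower with NanogBiD and 0 higher (0.962% and 0.368% of all genes), namely Col3a1, Col6a1 and Col9a1. At D3 7 were lower and 0 higher (2.45% and 1.25%), at D5 6 lower and 2 higher (3.28% and 3.2%), and at D7 8 lower and 2 higher (4.65% and 5.79%). The median over the 36 tested members moved from -0.07 at D0 to -0.43 at D7, beside 0.01 and 0.08 over all genes. In a fit to the 4 compared libraries alone 0 of all 16842 genes were called at D1 or at D3, collagens included, with the same differences (-2.39 for Col6a3 and -2.21 for Col28a1 at D3). Without the first NanogWT library of D1 the count at D1 was 0.

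The largest early differences were in genes of other classes, with the type I chain Col1a2 (-1.33) and Col3a1 (-1.46) also called lower with NanogBiD at D3. Col28a1, an uncommon collagen with von Willebrand factor A domains known from peripheral nerve, was at 0.609 and 1.24 FPKM with NanogBiD and 7.66 and 7.95 with NanogWT at D3. By D7 it was at 0.912 and 0.698 with NanogBiD against 25.0 and 22.9 with NanogWT, a difference of -3.79 (SE 0.16, limma adjusted p = 1.1e-11), and MEF held 1.06 and 0.336. Its change from D0 to D7 was 4.46 (SE 0.16) with NanogWT, called, and 0.70 (SE 0.16) with NanogBiD, not called, and the changes differed by -3.76 (SE 0.23, limma adjusted p = 5.6e-09). Col14a1, a FACIT of tendon and skin, was at 10.4 and 6.87 with NanogWT and 1.25 and 1.19 with NanogBiD at D3, and Col6a3, the large chain of type VI collagen, at 57.4 and 53.3 against 8.19 and 11.6. At D0 Col14a1 was at 0.765 and 0.717 with NanogWT and 0.758 and 0.529 with NanogBiD, and Col6a3 at 16.8 and 17.4 and at 19.3 and 12.6, so that the ranges overlap.

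By D7 Col8a1 was at 360 and 374 with NanogWT and 89.7 and 103 with NanogBiD (-1.92, SE 0.18), and Col6a6, a type VI chain that can take the place of Col6a3, at 8.20 and 6.56 against 1.73 and 1.40 (-1.71, SE 0.18). The 2 members higher with NanogBiD at D7 were Col26a1 (3.85 and 3.23 against 0.0473 and 0.117) and Col2a1 (3.84 and 4.06 against 0.129 and 0.249). Col26a1 is a small collagen described in testis and ovary. Its change from D0 to D7 differed between combinations by 2.04 (SE 0.23), and that of Col2a1 by 2.66 (SE 0.43). In all, that difference in change was called for 5 members in the negative and 3 in the positive direction (4.88% and 5.2% of all genes).

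After D7 the combinations went apart in most abundant collagens. The single NanogBiD library of D8 was at 313 FPKM for Col1a1 and 155 for Col3a1, above both D7 libraries, while the NanogWT libraries of D8 were at 472 and 442 and at 405 and 403. Smooth muscle markers summed to 235 in that NanogBiD library, against 29.2 and 39.8 at D7 and 19.1 to 26.9 at D10 and D12, and to 216 and 226 with NanogWT at D8. D8 was described and not tested, since NanogBiD had 1 library. The change of medium falls at about D7, so that day and medium cannot be told apart.

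From D7 to D12 14 members were called higher and 3 lower with NanogWT (6.66% and 4.62% of all genes), and 1 higher and 6 lower with NanogBiD (11.6% and 8.37%). Col1a1 rose with NanogWT to 894 and 664 FPKM at D12 (2.01, SE 0.26), and Col1a2 to 801 and 699 (2.46, SE 0.20). Col3a1, whose homotrimers make up the type III collagen of elastic tissues, rose to 777 and 650 (2.67, SE 0.23), against 676 and 277 in MEF. With NanogBiD the same genes were at 104 and 170, 57.5 and 88.8, and 61.0 and 98.4, none called against D7. Col12a1, Col5a1, Col4a5, Col4a2, Col6a1, Col6a2 and Col16a1 also rose with NanogWT, the calls of Col4a2 and Col6a1 being lost without the first NanogWT library of D12 (0.99 and 0.96).

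The change from D7 to D12 differed between the combinations in 20 members, 18 negative (lower with NanogBiD) and 2 positive (7.33% and 6.78% of all genes). The largest was Col8a1 at -4.06 (SE 0.25, limma adjusted p = 3.2e-09), followed by Col5a2 at -2.90 (SE 0.19) and Col3a1 at -2.80 (SE 0.32). Col9a2 (1.21, SE 0.28) and Col14a1 (1.36, SE 0.31) were the positive ones. Among the 18 were 6 of the 9 tested fibrillar genes and 3 of the 4 tested type IV genes. The Col9a2 call was lost with a pseudocount of 0.1 (0.88) and without the first NanogBiD library of D12 (0.86).

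The fall with NanogBiD after D7 was led by Col8a1 and Col11a1. Col8a1 went from 89.7 and 103 to 6.32 and 9.95 (-3.44, SE 0.18), while NanogWT libraries of D12 held 564 and 562. Col11a1 went from 53.7 and 54.2 to 4.36 and 6.04 (-3.16, SE 0.16) and was also called lower with NanogWT, from 102 and 108 to 41.0 and 38.7 (-1.38, SE 0.16). Col5a2 fell to 13.6 and 17.1. Col23a1 and Col25a1, which had risen by D7, were at 0.890 and 2.05 and at 0.681 and 0.835 at D12 with NanogBiD. The 1 member called higher was Col9a2, a FACIT chain of cartilage, from 0.531 and 0.314 to 7.38 and 4.16, beside 7.47 in mES.

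At D10 22 of the 36 tested members were lower with NanogBiD and 2 higher (12.3% and 15.4% of all genes), and at D12 21 lower and 4 higher (9.97% and 13.5%). The median over the tested members was -1.84 and -1.81, beside 0.10 and 0.17 over all genes. By class, 7 of the 9 tested fibrillar genes were lower at D12 (median -2.59), 3 of the 4 type IV genes (median -1.92) and 11 of the 23 others (median -0.65). The counts on both days stayed within 1.5 times under every alternative listed in the closing part.

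**Figure D4:**
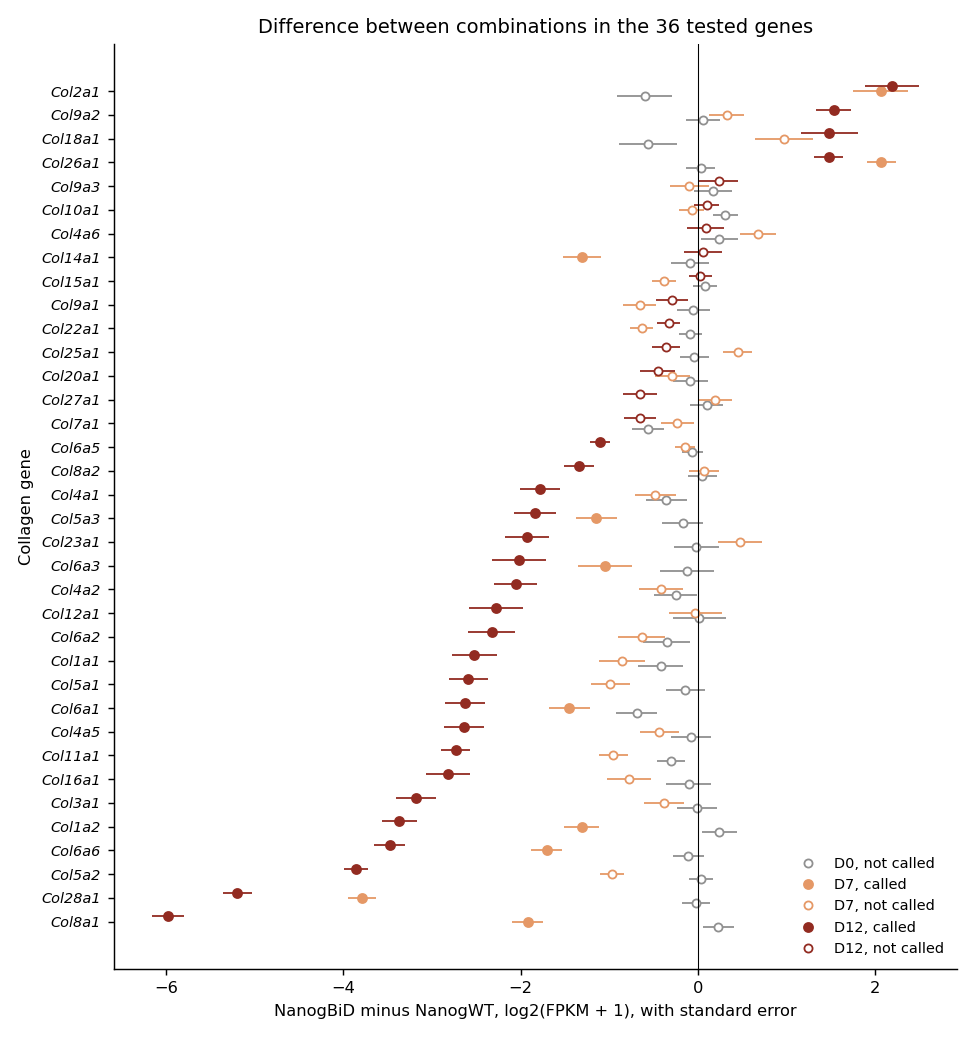
Difference between NanogBiD and NanogWT on the log2(FPKM + 1) scale with its standard error for the 36 tested collagen genes at D0 (grey), D7 (orange) and D12 (dark red), ordered by D12. Filled points are called and open points are not, and no point is filled at D0.

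The largest differences at D12 were in Col8a1 (-5.98, SE 0.18, limma adjusted p = 3.0e-14) and Col28a1 (0.194 and 0.198 against 42.8 and 42.8, -5.19, SE 0.16). Col5a2 followed at 13.6 and 17.1 against 254 and 217 (-3.86, SE 0.14), Col6a6 at 0.885 and 1.57 against 22.2 and 24.9 (-3.48, SE 0.18) and Col1a2 (-3.37, SE 0.20). None of these groups overlap. Among the other abundant members Col5a1, the partner of Col5a2 in type V collagen, was at 18.5 and 29.6 with NanogBiD and 167 and 127 with NanogWT (-2.59, SE 0.22). Col6a1 was at 8.96 and 13.9 against 82.4 and 66.8 (-2.63, SE 0.23), and Col12a1 at 7.57 and 11.9 against 54.4 and 46.1 (-2.28, SE 0.30). Their NanogBiD levels lie close to those of D7, and it is the NanogWT levels that are higher than at D7. Among type IV chains Col4a5 was at 3.01 and 4.24 against 29.0 and 26.2 (-2.64, SE 0.22), Col4a2 at 10.2 and 13.1 against 62.5 and 41.8 (-2.06, SE 0.25) and Col4a1 at 9.61 and 10.5 against 43.6 and 31.2 (-1.78, SE 0.23), while Col4a6 was not called at 0.596 and 1.18 against 0.582 and 0.954.

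The 4 members higher with NanogBiD at D12 were Col2a1 at 4.92 and 4.99 against 0.175 and 0.457 (2.19, SE 0.31), Col9a2 at 7.38 and 4.16 against 1.32 and 1.23 (1.53, SE 0.20), Col18a1 at 37.3 and 29.1 against 14.8 and 8.34 (1.48, SE 0.32) and Col26a1 at 5.02 and 6.03 against 1.64 and 1.08 (1.47, SE 0.16). Among these Col18a1 and Col9a2 were also detected in mES, at 21.7 and 7.47. Col2a1 was at 1.27 and Col26a1 at 0.516 there, under both NanogBiD libraries of D12.

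The late NanogWT libraries did not hold the collagen set of MEF. Of the 25 members with at least 1 FPKM in the MEF mean, the median level at D12 was 37.7% of MEF with NanogWT and 6.83% with NanogBiD. With NanogWT 5 stood above 100%, and the highest was Col8a1 at 691%. Col6a6 (0.0847 and 0 FPKM in MEF, 22.2 and 24.9 at D12) and Col28a1 were near 0 in MEF and high only later, whereas Col10a1 (0 and 0.0193 at D12) and Col2a1 stayed at the low end. The chain ratios shifted also. Col1a1 to Col1a2 was 0.950 to 1.11 in the NanogWT libraries of D10 and D12 and 1.71 to 1.92 in those of NanogBiD, beside 1.97 and 2.12 in MEF, and Col4a1 to Col4a2 was 0.668 to 0.746 and 0.802 to 0.945. Col3a1 to Col1a1 was 0.837 to 1.04 with NanogWT, beside 0.183 and 0.0827 in MEF.

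The fibroblast marker list moved in the same direction as these sums. Its sum was 113 and 133 FPKM at D7 and 37.7 and 46.4 at D12 with NanogBiD, and 260 and 265 and then 531 and 538 with NanogWT, with all 8 markers above 1 FPKM in the NanogWT libraries and 7 in those of NanogBiD at D12. The 8 pluripotency markers (Sox2, Zfp42, Esrrb, Dppa5a, Utf1, Dppa4, Tdgf1 and Sall4) summed to 1202 and 2171 at D12 with NanogBiD, to 158 and 217 with NanogWT and to 3563 in mES. Of the extraembryonic endoderm list, 8 genes that include the matrix genes Sparc and Lamb1 of fibroblasts, the sum at D12 was 170 and 180 with NanogBiD and 1519 and 1311 with NanogWT, of which Sparc alone held 153 and 160 and 1451 and 1247. Of its 5 transcription factors Sox17 was at 0.0108 and 0 FPKM, Foxa2 at 0.0164 and 0, Sox7 at 0.333 and 0.259, Gata4 at 0.387 and 0.415 and Gata6 at 0.997 and 1.18 in the NanogWT libraries of D12. In MEF the same list summed to 951 to 1288, with Gata6 at 8.62 and 4.66. The part of the number of fibroblasts or of the other listed cells in the collagen differences was not tested.

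Collagen chains need enzymes and chaperones before secretion, and 50 such partner genes were followed, of which 44 were tested. Their roles cover hydroxylation and glycosylation of chains (13 genes), folding and export (8), removal of propeptides (8), cross-linking (5), receptors (10) and transcription factors of collagen genes (6). At D7 against D0 20 were called lower and 2 higher with NanogBiD and 18 lower and 3 higher with NanogWT, where 6.15% and 12.7% and then 5.69% and 12% of all tested genes were called lower and higher. At D12 22 were lower with NanogBiD than with NanogWT and 0 higher, beside 9.97% and 13.5% of all genes. All 5 lysyl oxidases, which cross-link fibrils, fell from D0 to D7 in both combinations, and 4 of the 5 rose again from D7 to D12 with NanogWT.

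Lox itself was at 394 to 441 FPKM at D0 and 65.0 to 70.3 at D7 with NanogBiD, and at 228 to 401 and then 30.7 to 30.8 with NanogWT. It was higher with NanogBiD at D7 (1.11, SE 0.23), and lower at D12 (18.7 to 23.3 against 306 to 367, -3.94, SE 0.23). At D7 7 of the 9 tested fibrillar genes had a negative difference, while Col2a1 was called higher with NanogBiD. Adamts2, which removes the N-terminal propeptide of fibrillar collagens, was at 1.79 or less with NanogBiD and 30.8 to 34.9 with NanogWT at D12 (-3.82, SE 0.20). The collagen receptor Ddr2 was at 4.62 to 7.02 and 75.9 to 89.6 (-3.64, SE 0.28). Pcolce, which enhances removal of the C-terminal propeptide, fell from 186 to 217 at D7 to 23.0 to 24.2 at D12 with NanogBiD (-3.04, SE 0.23). Of the 5 tested transcription factors only Creb3l1 was called at D12, lower with NanogBiD (-2.33, SE 0.19), and it is named here after its value was seen.

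The iPSC samples and the MEF and mES references were compared in the transcript table, which was normalized separately and is therefore not set beside the values above. Against MEF 22 of the 28 tested members were lower over all 12 iPSC samples and 2 higher (18.7% and 21.7% of all genes), with medians of -5.67 over the 9 tested fibrillar genes, -3.94 over the 3 tested type IV genes and -2.60 over the 16 others, beside 0.21 over all genes. Col1a2 had the largest difference at -8.23 (SE 1.93), then Col1a1 at -8.20 (SE 2.24) and Col3a1 at -7.54 (SE 1.25). The type I chains also had a wide range among the iPSC. Col1a1 ran from 0.407 to 931 FPKM, beside 3890.5 and 3662 in MEF and 0.736 in mES.

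The highest Col1a1 values were all in iPSC1 samples of passage 5. With NanogBiD the 3 samples of iPSC2 held 0.407, 0.537 and 0.915 FPKM of Col1a1 and the 3 of iPSC1 24.3, 74.5 and 931, the last being the sample numbered 9#. With NanogWT the 2 samples of iPSC2 held 0.573 and 10.4, and the 4 of iPSC1 0.738 and 2.18 at passage 6 and 95.7 and 285 at passage 5, the last being 3#. The 5 samples of iPSC1 at passage 5 thus lie at 24.3 to 931, while the 2 at passage 6 lie within the range of iPSC2 (0.407 to 10.4). Type IV sums overlapped between the passages of iPSC1, at 8.09 and 45.9 at passage 6 and 22.4 to 141 at passage 5. Col18a1 was highest in the 2 samples of passage 6, at 101 and 104. Passage was not a term of the fit. Fibrillar sums ran from 51.3 to 1527 in iPSC1 and from 8.36 to 9.06 in iPSC2 with NanogBiD, and from 7.03 to 486 and from 5.56 to 31.2 with NanogWT. The same number was carried by 2 NanogWT samples, 1# at passage 5 and 1#-2 at passage 6, which stood at 95.7 and 2.18 FPKM of Col1a1. Whether they are the same clone is not given in the titles. In the sample 9# fibroblast and smooth muscle markers were high too, with Acta2 at 255 FPKM and Prrx1 at 13.8 where the 3 iPSC2 samples of the same combination had at most 0.153 and 0. The 8 fibroblast markers summed to 1.85 to 70.1 over the NanogBiD iPSC and to 2.56 to 25.3 over the NanogWT iPSC, and the 6 smooth muscle markers to 12.3 to 479 and 9.69 to 187. Sox2 was at 187 and Esrrb at 118 in it, beside 180 and 157 in mES, and the part of cells with these markers in its collagen level was not tested.

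**Figure D5:**
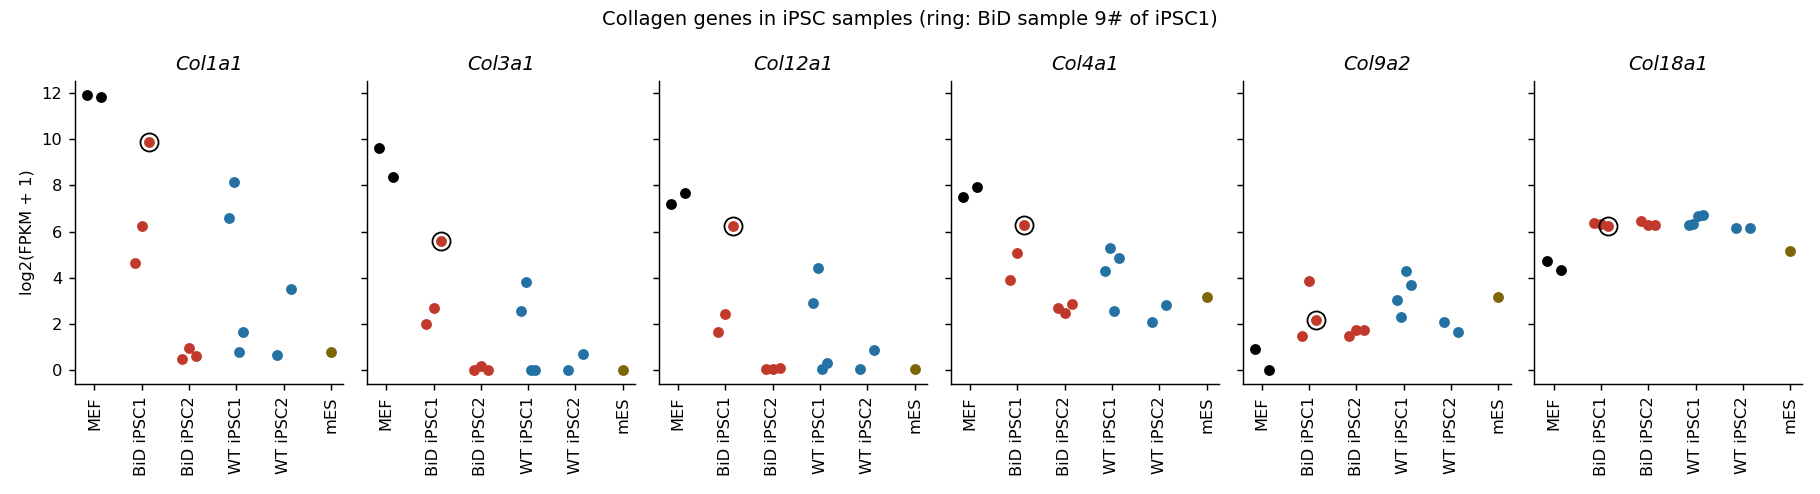
Level of 6 collagen genes as log2(FPKM + 1) in MEF, in iPSC by combination and line, and in mES, with 1 point per sample and the NanogBiD sample 9# ringed. Col1a1, Col3a1 and Col12a1 spread widely within iPSC1, and Col18a1 lies above both MEF samples in all 12 iPSC samples.

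Col18a1 and Col9a2 were the 2 members higher in iPSC than in MEF. Col18a1 was at 74.6 to 87.0 FPKM with NanogBiD and at 70.5 to 104 with NanogWT, beside 25.4 and 19.1 in MEF and 34.3 in mES (1.83, SE 0.14, limma adjusted p = 6.5e-08), and at least 97.8% of it in each group came from 1 annotated transcript. Col9a2 was at 1.75 to 13.4 and 2.14 to 18.5, beside 0.878 and 0 in MEF and 7.86 in mES (2.00, SE 0.64), a call lost without the second MEF sample (1.55). Col4a1 and Col4a2 were at 3.29 to 75.9 and 1.66 to 54.0 over all iPSC, beside 8.10 and 4.88 in mES.

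Between iPSC of the 2 combinations 0 of 20 tested members were called by limma with the line as covariate, 0 had an unadjusted p under 0.05, and 0% of all 12456 tested genes were called higher or lower. The difference for Col1a1 was 0.96 (SE 1.37), and for Col1a2 1.03 (SE 1.21), standard errors of more than 2-fold. Without the sample 9# the Col1a1 difference was -0.06 (SE 1.29). For Col18a1, which varied little, the difference was -0.03 (SE 0.10), and for Col9a2 -0.59 (SE 0.40).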

How the data were processed

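RNA-seq of 46 samples was used as deposited. The authors trimmed paired reads with Trim Galore 0.6.4, aligned them to mm10 with HISAT2 2.2.1 and computed FPKM with StringTie 2.2.1 (names and versions per the submitters' processing notes). The annotation and the use of strand are not given in the sources used here. The authors deposited a gene table of FPKM (37108 genes, 31 time-course libraries, 2 of MEF and 1 of mES) and a separately normalized transcript table of FPKM (106520 transcripts, 12 iPSC samples, MEF and mES), whose transcripts were summed by symbol.

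Groups came from the labels. The members were taken by symbol, and the members, classes, marker lists and partner list were chosen with earlier results of these data known. Genes at 1 FPKM or more in at least 2 samples of a fit were tested on log2(FPKM + 1) with limma 3.58.1 in R 4.3.3 (a mean per group, moderated with a trend, Benjamini-Hochberg adjustment over all tested genes), and called at an adjusted p under 0.05 and a difference of 2-fold or more. A fold on this scale understates the change of low genes. The time-course groups shared 1 estimate of the spread. MEF were added for the contrasts with D0, and the line was a covariate between iPSC groups. Members were named by level in MEF (a mean of 100 FPKM or more), as the 5 largest calls in each direction of a comparison, or as chains of a head-to-head type IV pair, and other members with values were chosen after their values were seen. Of the partner genes the 3 largest calls in each direction were eligible.

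Read counts were not used. Relative depth was estimated from the steps of low FPKM values of 4606 genes, counting a value as a whole number of reads within 0.03, and the depth of the transcript table is unknown. Total FPKM was 370030 to 462190 over the time-course libraries of the gene table and 396871 to 435908 over the iPSC. Data were simulated in which 200 genes were changed by 2 on the log2 scale. Of these 94.5% were called in the D5 comparison of the combinations (16842 genes) and 98.5% in D0 with NanogBiD against MEF (16915). Between iPSC groups 98% were called (12456), and in iPSC against MEF 95.5% (13312). The changed genes were drawn from those with a mean above 2 on the log2(FPKM + 1) scale, with normal noise of each gene's spread. These shares thus do not apply to low members, nor to members as variable among iPSC as the type I chains. The alternatives were a pseudocount of 0.1, no filter, a common total, quantile normalization, calls by p alone, separate fits of each pair of groups, a replicate block, no line covariate, the samples 1# and 1#-2 as 1, and leaving out each sample. Tables were handled in Python 3.11.15 with pandas 2.3.3, numpy 2.4.6 and scipy 1.17.1, and plots were drawn with matplotlib 3.10.9.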

Additional observations from a re-analysis of the deposited data

Results flagged for a closer look

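The NanogBiD iPSC sample 9# stood apart from the other 5 of its group. The gap from it to the next sample, divided by the range of the group in FPKM, was 0.920 for Col1a1, 0.908 for Col1a2, 0.886 for Col3a1, 0.866 for Col5a1 and 0.934 for Col5a2 among fibrillar genes. It was 0.933 for Col4a5, 0.892 for Col6a1, 0.926 for Col6a2 and 0.942 for Col12a1. For the class sums it was 0.911 (fibrillar), 0.627 (type IV) and 0.828 (other), and 0.884 for all collagens. Dixon's limit for 6 samples is 0.625. The sample was the highest of its group in each of these.

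The NanogWT sample 3# was the highest of its group by a smaller margin, with 0.665 for Col1a1, 0.651 for Col1a2, 0.627 for Col3a1, 0.694 for Col5a2, 0.679 for Col12a1 and 0.725 for Col4a5, 0.657 for the fibrillar sum and 0.634 for all collagens. In 3# the listed smooth muscle and fibroblast markers other than Pdgfra and Smtn were also the highest of the group. Among them were Acta2 (91.9 FPKM), Tagln (63.2), Thy1 (11.5) and Prrx1 (3.89). Pdgfra was at 0.159 in 3# and reached 0.311 in the group, and Smtn was at 12.1 and reached 12.5. The part of cells with these markers in the collagen levels of 3# was not tested. Col9a2 stood apart in another sample, the NanogBiD sample 8#, at 0.848. In all 22 of 34 checks passed the limit, 13 of them in 9#. Chance passes about 1 in 20 only for normally distributed values. The checks used FPKM without logs, which are skewed here, so that the chance rate is not known. The checks share samples, and the genes move together in them.

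The change from D0 to D7 differed between NanogBiD and NanogWT by the test of the difference itself in 8 members. On the log2 scale, as NanogBiD minus NanogWT, it was 2.66 for Col2a1, 2.04 for Col26a1, 1.53 for Col18a1, -1.22 for Col14a1, -1.55 for Col1a2, -1.60 for Col6a6, -2.15 for Col8a1 and -3.76 for Col28a1. For Col2a1 this was a fall that was called with NanogWT (-3.13) and not with NanogBiD. The Col14a1 call was lost without the second NanogWT library of D7 (-1.04).

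The change from D7 to D12 differed in 20 members. It was 1.36 for Col14a1 and 1.21 for Col9a2, and negative for the others. Among fibrillar chains it was -2.90 for Col5a2, -2.80 for Col3a1, -2.06 for Col1a2, -1.67 for Col1a1 and -1.60 for Col5a1. Among type IV chains it was -2.20 for Col4a5, -1.64 for Col4a2 and -1.30 for Col4a1. In the other classes it was -4.06 for Col8a1, -2.40 for Col23a1, -2.25 for Col12a1 and -1.18 for Col6a1. Not all of the 18 negative members are listed here. The Col6a1 call was lost without the first NanogBiD library of D7 (-0.81) or of D12 (-0.89), or the first NanogWT library of D12 (-1.03). These late differences coincide with the higher depth of the NanogWT libraries from D8 on, and the part of depth was not tested.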

How the results depend on the processing

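Among results on the members named by the stated rule, no call changed direction under any alternative run. Other members and the partner genes were not checked for this. Without the fold limit the number of members called between NanogBiD and NanogWT was 5 in place of 3 at D1, 13 in place of 7 at D3, 13 in place of 8 at D5 and 21 in place of 10 at D7, and the number called from D7 to D12 with NanogBiD was 14 in place of 7. Calls over all genes went from 224 to 551 at D1, 623 to 1709 at D3, 1091 to 2755 at D5, 1758 to 4779 at D7 and 3366 to 7335 from D7 to D12 with NanogBiD. With a pseudocount of 0.1 it was 11 at D3, 16 at D7 and 14 from D7 to D12 with NanogBiD, where calls over all genes were 1011, 2716 and 4556. In fits to the compared groups alone, which have 2 residual degrees of freedom and borrow no spread from other days, it was 0 at D1, 0 at D3, 11 for D0 with NanogBiD against MEF in place of 18 and 0 for D0 with NanogWT against MEF in place of 18. Over all genes those fits called 0, 0, 1021 and 1. Every other count under every other setting was within 1.5 times the reported one. Leaving out each library in turn gave 0 to 2 at D1 (0 without the first NanogWT library), 6 to 10 at D3 and 7 to 9 at D5. It gave 9 to 13 at D7, 24 to 25 at D10 and 25 at D12. The matching counts over all genes are not given here.

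The groups share replicate numbers. Deviations from the group means were compared between same-numbered libraries. They correlated at 0.23, 0.13, -0.06, -0.04, 0.39, 0.12 and 0.02 over D0, D1, D3, D5, D7, D10 and D12. Whether such libraries share more than the number cannot be told from 2 libraries per group. With the number as a replicate block the counts between the combinations were 3, 7, 8, 10, 24 and 25 at D1, D3, D5, D7, D10 and D12. Calls over all genes were 241, 637, 1116, 1765, 4683 and 3961 on those days. The block changed no named call.

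Over 254 results on named members, the settings other than leaving out a sample left 1653 calls on the same side of the threshold, brought 35 past it and lost 31, and leaving out a sample did so for 1316, 20 and 22. Col1a1 at D3 was called with a common total (-1.07) and with quantile normalization (-1.10). Low genes are compressed by the added 1 FPKM, and 2 libraries a group leave changes near 2-fold uncertain. The median over all genes moved with the scaling, from 0.17 to 0.07 at D12 and from 0.21 to 0.14 in iPSC against MEF under quantile normalization, and in the latter to 0.01 with a common total.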

Other observations

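The proportion of the type V collagen chains moved over the days. The ratio of Col5a1 to Col5a2 FPKM was 0.940 and 1.49 in MEF. It was 0.325 to 0.508 at D7 with NanogBiD and 0.393 to 0.444 with NanogWT, where the combinations overlap. With NanogBiD it was 1.03 to 1.04 at D1, between the MEF values. At D12 it was 1.36 to 1.73 with NanogBiD, which overlaps the MEF values, and 0.584 to 0.660 with NanogWT, which lies below them. The combinations thus lay apart at D12 in the proportion of the chains as well as in their levels.

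Other cell type lists were followed beside the collagens. In the NanogWT libraries of D7 the 6 skeletal muscle markers summed to 59.9 and 90.6 FPKM, beside 7.16 to 15.2 with NanogBiD, but Des, a filament gene shared with other muscle, held nearly all of it and Myod1, Myog and Myf5 were at 0. Chondrocyte markers summed to 14.4 to 23.9 at D12 with NanogBiD and to 12.1 to 12.3 with NanogWT, beside the higher Col2a1 and Col9a2 of NanogBiD. Osteoblast markers summed to 185 to 290 and 177 to 229, most of it Spp1 and Alpl, and epithelial markers to 69.9 to 143 and 4.39 to 13.0. Endothelial markers summed to 48.6 or less and macrophage markers to 30.9 or less in every library. The part of such cells in the collagen values was not tested.

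Col13a1, a transmembrane collagen that did not pass the filter, was at 0.575 and 0.889 FPKM at D7 with NanogBiD, at 0.0730 and 0 with NanogWT and at 0 in both MEF libraries.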
